A study of Mus musculus with 3 samples.

Results

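The Stat genes described here encode 6 signal transducers and activators of transcription, Stat2, Stat3, Stat4, Stat5a, Stat5b and Stat6. Their members were the distinct peaks of 5-hydroxymethylcytosine (5hmC) whose midpoint lay in the mm10 span of 1 of these genes or within 5 kb of it, which gave 146 of 208468 peaks. The series holds 3 mouse bone marrow samples: 1 of normal marrow and 2 of NIDF-AML, an acute myeloid leukaemia induced by IDH2/R140Q, NPMc (mutant NPM1), DNMT3A/R882H and FLT3-ITD together. Mouse strain, age, and the promoter or vector that carried the 4 mutant genes were not given in the sources used here. Nothing in the labels says whether the leukaemia replicates came from separate animals. 5hmC was labelled with an azide-bearing glucose, coupled to biotin, captured on avidin and sequenced.

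The deposited lists of both leukaemia samples contained the same 223267 lines, so they were counted as 1 list without a replicate. In both headers the treatment is the index 4 library, set against index 5 in the list of replicate 1 and index 6 in that of replicate 2. The sources used here do not assign an index to any of the 3 samples. Every value below therefore belongs to the index 4 library, and no comparison of leukaemia with normal marrow was made. A peak in these lists is a position with no height, and the read depth was not known. A gene or stretch described as free of peaks is therefore one where the list has none. If the control libraries entered the calling, a listed peak may be an excess over a control that was itself a 5hmC library. Marker genes of marrow and other cells were also looked up. Peaks within 5 kb were listed at 5 of 5 granulocyte and monocyte marker genes, 4 of 4 B cell, 3 of 3 T cell and 3 of 3 erythroid markers, and at 0 of 3 hepatocyte and 0 of 3 neuronal markers. Of all protein-coding genes 73.1% had one, and the T cell and erythroid markers had 1 to 7 peaks each, so their counts say little about the cells present.

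Stat proteins wait in the cytoplasm, are phosphorylated on tyrosine by Janus kinases (Jak) or by receptor kinases at an activated cytokine receptor, pair up and enter the nucleus, where they bind DNA and switch on target genes. Stat5a and Stat5b are close copies that act downstream of Flt3 with an internal tandem duplication and of many growth factor receptors of blood cells, and Stat3 acts downstream of interleukin-6 type receptors and the granulocyte colony-stimulating factor receptor. 5hmC is made from 5-methylcytosine by TET enzymes, mostly where a cytosine precedes a guanine (a CpG). In many tissues it is found over the bodies of active genes and is low at CpG-rich promoters.

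The promoters of Stat5a and Stat5b are shown first because each gene has a pair of starts in the RefSeq promoter table and the peaks fall differently around them. Each sequence is from RefSeq, assembly GRCm38.p6, and runs 5′ to 3′ on the gene's own strand from 250 bases before the start of transcription to 50 bases from it on. In the first sequence the capitals mark the bases of a listed peak, and in the other sequences they mark every CpG. Stat5a lies on the plus strand, and its windows are chr11:100859406-100859705 (upstream start) and chr11:100860234-100860533 (downstream start). Stat5b lies on the minus strand, and its windows are chr11:100850532-100850831 (upstream start) and chr11:100822521-100822820 (downstream start).
Stat5a upstream start: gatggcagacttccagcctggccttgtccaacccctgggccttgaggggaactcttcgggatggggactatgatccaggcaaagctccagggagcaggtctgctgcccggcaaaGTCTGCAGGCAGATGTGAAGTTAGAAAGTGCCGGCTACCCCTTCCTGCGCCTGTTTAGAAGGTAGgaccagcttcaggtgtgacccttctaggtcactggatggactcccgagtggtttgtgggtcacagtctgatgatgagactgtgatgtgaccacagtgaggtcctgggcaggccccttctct
Stat5a downstream start: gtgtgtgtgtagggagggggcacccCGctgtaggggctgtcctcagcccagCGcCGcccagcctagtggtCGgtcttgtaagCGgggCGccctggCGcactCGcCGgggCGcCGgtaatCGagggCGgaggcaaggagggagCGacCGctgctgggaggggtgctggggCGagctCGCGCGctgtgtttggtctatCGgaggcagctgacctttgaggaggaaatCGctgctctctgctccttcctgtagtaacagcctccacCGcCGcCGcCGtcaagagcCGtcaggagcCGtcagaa
Stat5b upstream start: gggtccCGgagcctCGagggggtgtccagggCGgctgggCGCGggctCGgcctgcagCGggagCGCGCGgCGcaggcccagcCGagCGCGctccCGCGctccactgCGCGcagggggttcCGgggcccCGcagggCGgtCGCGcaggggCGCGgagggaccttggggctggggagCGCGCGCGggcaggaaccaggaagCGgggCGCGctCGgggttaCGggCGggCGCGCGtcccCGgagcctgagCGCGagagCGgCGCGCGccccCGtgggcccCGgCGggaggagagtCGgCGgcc
Stat5b downstream start: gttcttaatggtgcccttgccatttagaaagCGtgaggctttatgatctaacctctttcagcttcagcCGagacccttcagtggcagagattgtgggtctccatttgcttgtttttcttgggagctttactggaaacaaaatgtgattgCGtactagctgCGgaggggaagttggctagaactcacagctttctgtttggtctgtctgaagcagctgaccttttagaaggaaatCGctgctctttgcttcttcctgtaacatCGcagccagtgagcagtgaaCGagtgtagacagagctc

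The window of the Stat5a upstream start was the only one of the 9 Stat windows in the table that overlapped a listed peak. Of all 21263 windows of protein-coding genes, 4.55% did. The peak covered bases 115 to 179 of that window, 65 bases with 2 CpGs. Positions in this part of chromosome 11 are multiples of 8, and with 8 more bases on each side the stretch held 3 CpGs. The headers give a fragment length of 200 bp, longer than this peak. The marked bases therefore do not show which CpGs carried 5hmC. The whole window held 5 CpGs, against a median of 13 over all windows. The downstream window of Stat5a held 27 CpGs and no peak. Its nearest peaks were 932 bp upstream, which is the peak of the upstream window, and 844 bp downstream of the start.

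The Stat5b upstream window held 50 CpGs, and 1.10% of all windows held as many or more. Its GC content was 82.7%. It lay in a stretch of 9144 bp between neighbouring peak midpoints, which ran from 7515 bp upstream of the start to 1629 bp downstream. The Stat5b downstream window held 7 CpGs. The nearest peaks were 310 bp upstream and 666 bp downstream, so this start sat among peaks without one in its own window. The downstream windows of the paralogues share a stretch: bases 185 to 249 of Stat5a and bases 194 to 258 of Stat5b were identical at 58 of 65 positions (89.2%). That stretch held 2 CpGs in Stat5a and 1 in Stat5b, and no listed peak in either gene.

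Across all protein-coding windows, 2.26% of those with at least 13 CpGs overlapped a peak, against 6.93% of those with fewer. Within 1 kb of the start a peak was found for 29.9% and 25.0% of these classes. The sequence TTCNNNGAA, the core of the element that most Stat dimers bind, was searched on both strands (it reads the same on each). It was absent from all 9 Stat windows and present in 7.69% of all windows.

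All 6 Stat genes carried 5hmC peaks in the gene body. Of all protein-coding genes, 66.6% had one there. With 5 kb added on each side, a peak was found at 73.1% of the 21779 protein-coding genes, and at 84.2% of the 8689 genes whose span lay between those of the shortest and longest Stat gene (18.0 to 120.1 kb). Having a peak was thus common among genes of this size, and the number of peaks per kb separated the Stat genes more. The median density over the 6 genes was 0.534 peaks per kb of body. The median over genes of the same span range was 0.114, with quartiles of 0.0298 and 0.285, and the median over all protein-coding genes was 0.0941. The density of 5 of the 6 Stat genes was above the upper of those quartiles, and that of Stat4 was not. Intervals below are exact Poisson intervals at 95% that take each peak as an independent count and hold no other source of error.

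Stat5b held 47 peaks (interval 34.5 to 62.5) over 78.3 kb of chromosome 11 (100780731 to 100859004), the most of the 6 genes. Its density was 0.600 peaks per kb (0.441 to 0.799), or 1 peak per 1.67 kb, and 6.46% of genes of the same span range were as dense or denser. Stat5a held 16 peaks (9.15 to 26.0) over 25.8 kb (100859351 to 100885169), and its density of 0.620 per kb (0.354 to 1.01) was the highest of the 6 by value. Stat3 held 30 peaks (20.2 to 42.8) over 52.8 kb (100886806 to 100939594), or 0.568 per kb (0.383 to 0.811). The densities of these 3 neighbours lay well within one another's intervals.

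Stat6, which carries the signal of interleukins 4 and 13, held 9 peaks (4.12 to 17.1) over 18.0 kb of chromosome 10 (127642955 to 127660987), or 0.499 per kb (0.228 to 0.947). Stat2, which joins Irf9 in the complex that answers type I interferon, held 10 peaks (4.80 to 18.4) over 22.4 kb of chromosome 10 (128270498 to 128292853), or 0.447 per kb (0.214 to 0.823). The intervals of Stat6 and Stat2 overlapped each other and those of the chromosome 11 genes. With counts of 9 and 10, differences in density among these 5 genes could not be resolved.

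Stat4, which acts downstream of interleukin-12 in T and NK cells, had the lowest density. It held 21 peaks (13.0 to 32.1) over 120.1 kb of chromosome 1 (51987106 to 52107189), or 0.175 per kb (0.108 to 0.267), and 38.7% of genes of the same span range were as dense or denser. The density of Stat5b was 3.43 times that of Stat4 (exact interval of a ratio of Poisson rates, 2.01 to 6.05). The ratios to Stat4 were 3.54 for Stat5a (1.73 to 7.13), 3.25 for Stat3 (1.80 to 5.97), 2.85 for Stat6 (1.15 to 6.50) and 2.56 for Stat2 (1.08 to 5.68). All 5 intervals lay above 1, and those of Stat2 and Stat6 only narrowly. The reference, Stat4, is the gene of lowest density in these same data, so every ratio exceeds 1 by that choice. The intervals make no allowance for it. The contrast was smaller among peaks of at least 50 bp, an alternative in which the ratios were 2.71 for Stat5b (1.45 to 5.23), 2.21 for Stat2 (0.775 to 5.61), 2.19 for Stat5a (0.818 to 5.35), 1.61 for Stat3 (0.700 to 3.57) and 1.57 for Stat6 (0.384 to 4.80). There the interval of Stat5b alone lay above 1, while 5 of the 6 genes again exceeded the upper quartile of genes of the same span range (0.191 per kb). Peak positions are multiples of 4 bp in Stat4 and of 8 bp in the other genes, so widths are coarser in the other genes. The part of this rounding in the change was not tested.

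**Figure D1:**
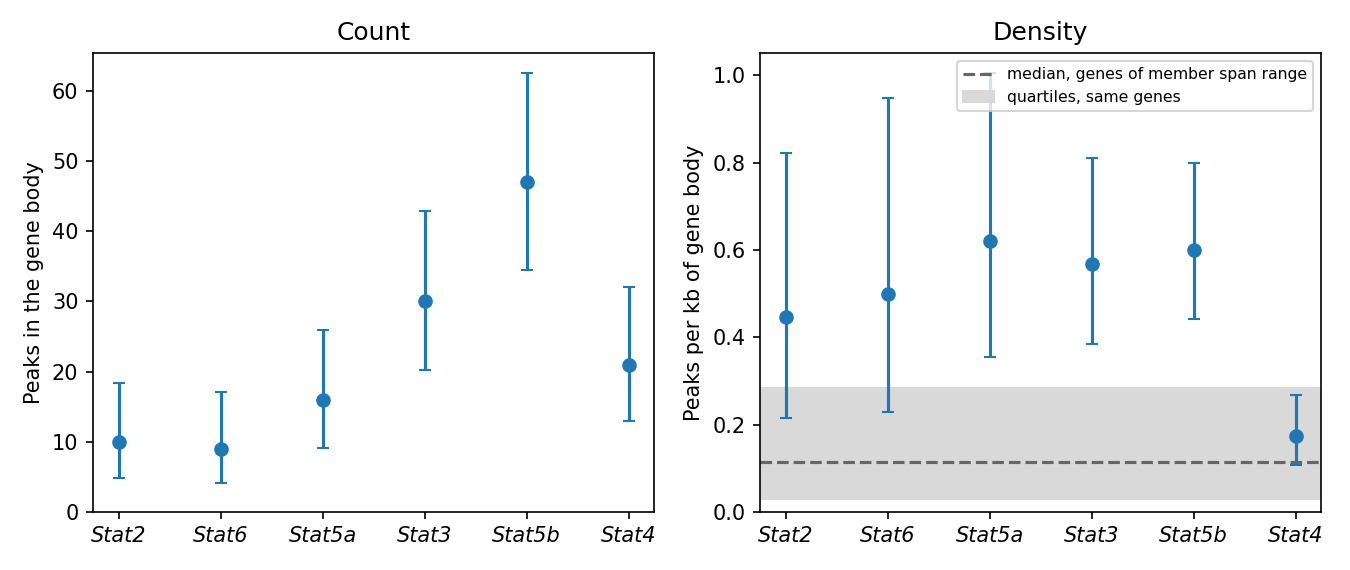
Number of peaks in the gene body (left) and peaks per kb of gene body (right) for each Stat gene. Points are the values and bars their exact Poisson 95% intervals; the dashed line and grey band on the right are the median (0.114) and quartiles of the 8689 protein-coding genes of 18.0 to 120.1 kb. Stat5b has the highest count, and Stat4 alone lies inside the grey band.

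By the share of the gene body that peaks covered, Stat4 was lowest too. That share is the density times the mean peak width, so it is not separate evidence of a low density. Peaks covered 1.24% of Stat4, and between 3.09% (Stat3) and 4.15% (Stat5b) of the other genes. Single peaks were 17 to 161 bp wide with a median of 65 bp, the same median as in the whole list. In chromosomes 10 and 11 the positions of the Stat peaks are multiples of 8 bp and in Stat4 multiples of 4 bp, so widths are coarse. By median width of the peaks within 5 kb, Stat3 and Stat5a had 49 bp, Stat2, Stat5b and Stat6 65 bp and Stat4 73 bp. Stat4, the gene with the fewest peaks per kb, had the widest median. In the other genes no width fell between 65 and 81 bp, so its lead over 65 bp is within the rounding.

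The 6 genes differed in where their peaks lay. With each body divided into 10 equal parts from its 5′ to its 3′ end, Stat5b had peaks in all 10, between 2 and 7 in each. Its peaks followed each other at a median of 988 bp between midpoints. The longest stretch without a midpoint was the 9.14 kb around its CpG-rich upstream start. The gene table takes Stat5b 8.42 kb farther upstream than that start, and 2 peaks lay in the added sequence, at 0.276 and 0.908 kb from the 5′ end of the span.

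Stat3 had peaks in 9 of 10 parts, with 7 in the fifth and none in the first. Its first 5.36 kb held no midpoint, the longest free stretch of that gene. The start of transcription itself lay in 11080 bp without one, from 5772 bp upstream to 5308 bp downstream. The middle 4 parts held 18 of its 30 peaks.

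Stat5a had peaks in 7 parts, and no midpoint fell between 4.82 and 11.7 kb from its 5′ end, which is 26.8% of the body. The first 5 parts held 5 of its 16 peaks and the last 5 held 11. The 3 peaks nearest the 3′ end lay within 5 kb of the end of Stat3, which points the opposite way, and were counted for both genes.

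Stat2 had all 10 of its peaks in the first 13.9 kb. The last 8.45 kb, 37.8% of the body, held none, the largest free share of the 6 genes. Stat6 had 3 peaks in its first 3 parts, 3 in the middle 4 and 3 in the last 3, with its longest free stretch of 3.46 kb between 5.20 and 8.66 kb from the 5′ end.

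In Stat4 each of the 10 parts held at least 1 peak, but 12 of the 21 lay in parts 2 to 4, and 15 in the first 5. After a single peak at 0.654 kb, the next midpoint came at 16.6 kb, the longest free stretch in any of the 6 bodies (15.9 kb). The last 5 parts of the gene held 6 peaks. The median distance between neighbouring midpoints was 4712 bp, against 988 to 1448 bp in the other 5 genes.

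**Figure D2:**
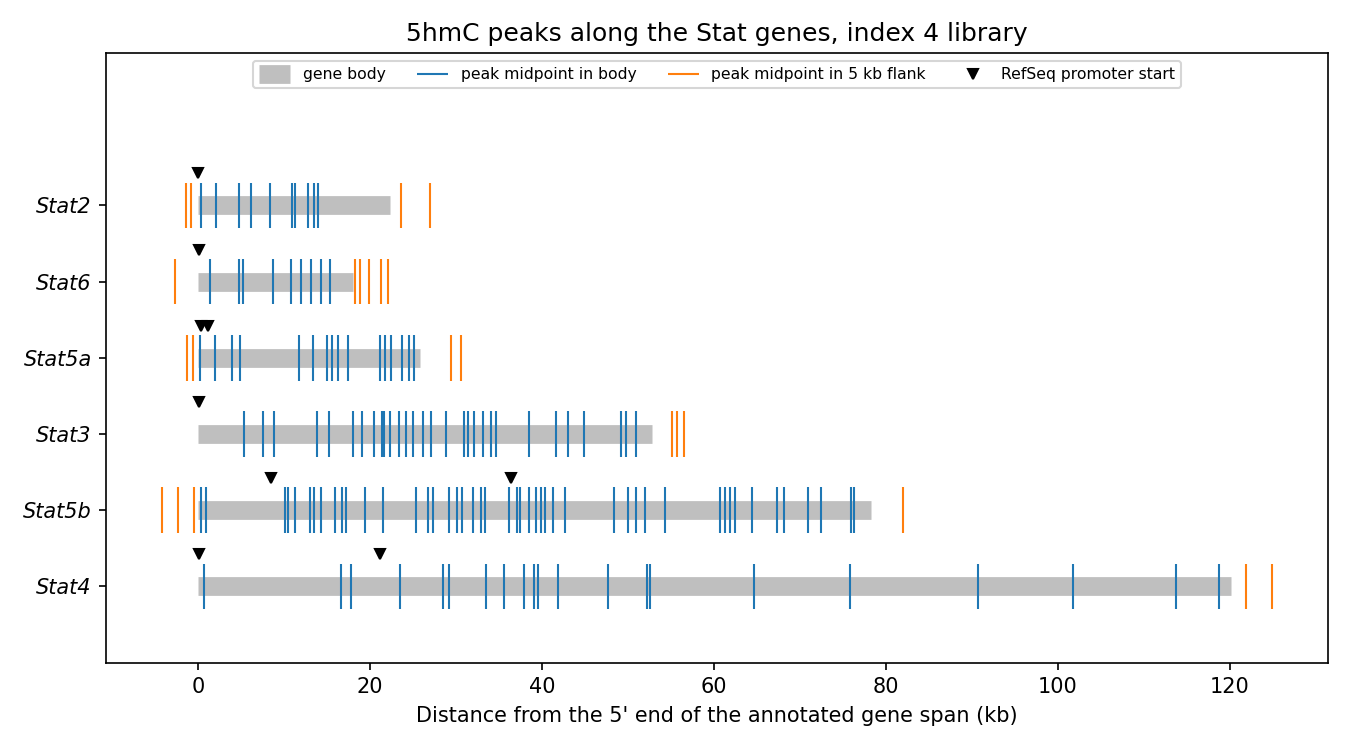
Peak midpoints along each Stat gene, drawn to scale from the 5′ end of the annotated span (horizontal axis, kb). Grey bars are gene bodies, blue ticks midpoints in the body, orange ticks midpoints in the 5 kb flanks and triangles the starts in the RefSeq promoter table. Peaks run densely through Stat5b and Stat3, end at 13.9 kb in Stat2, and in Stat4 gather in parts 2 to 4 of 10.

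Near the starts of transcription the Stat genes differed. Of the 9 starts in the promoter table, 5 had a peak midpoint within 1 kb, against 27.5% of the 21263 starts of protein-coding genes, and 8 had one within 5 kb, against 60.9%. Starts of the same gene share peaks: both starts of Stat5a count the same peak at 100859520 to 100859584. Stat2 had peaks 874 bp upstream and 326 bp downstream of its start, a window with 22 CpGs. Its upstream peaks lie in Apof. The upstream start of Stat4 had 1 peak 612 bp downstream and the next one upstream 22600 bp away. Its downstream start had its nearest peaks 3324 bp upstream and 2368 bp downstream. Stat6 had its nearest peaks 2746 bp upstream and 1374 bp downstream, and Stat3 was the gene without a peak within 5 kb of its start.

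Over all starts the density was lowest in the first 500 bp on each side, at 0.146 peaks per kb upstream and 0.127 downstream, and highest at 1000 to 1500 bp downstream, at 0.277.

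**Figure D3:**
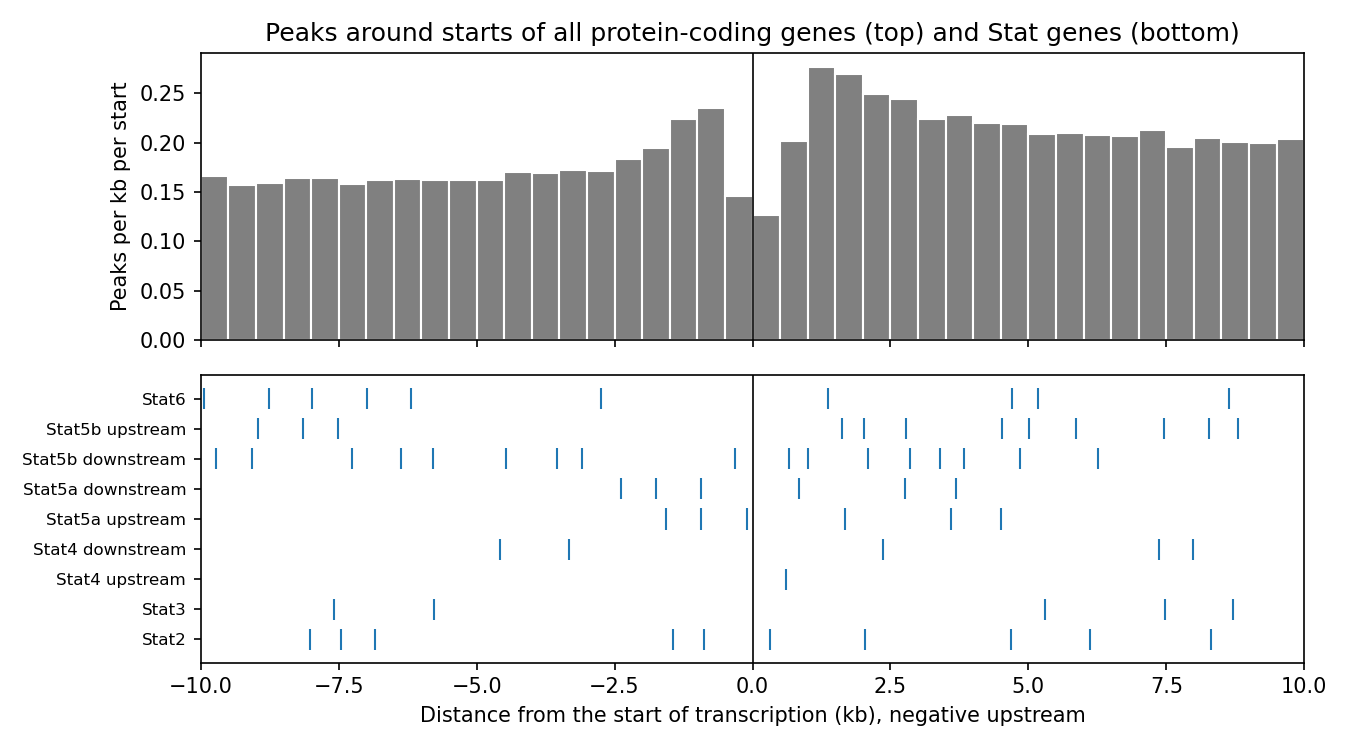
Peaks within 10 kb of starts of transcription. The upper panel gives the mean number of peaks per kb per start over 21263 starts of protein-coding genes in bins of 500 bp, and the lower panel gives each peak midpoint around the 9 starts of the Stat genes. The average dips next to the start, and the row of Stat3 is empty from 5772 bp upstream to 5308 bp downstream.

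Taken as one locus, Stat5b, Stat5a and Stat3 spanned 158.9 kb and held 93 peaks (75.1 to 113.9), or 0.585 per kb (0.473 to 0.717). With the 5 kb flanks the locus held 94, which is 64.4% of all Stat peaks, and 10 counts in the values per gene came from peaks shared by neighbours. The genes lie close: 346 bp separate the spans of Stat5b and Stat5a, and 1636 bp those of Stat5a and Stat3, with no midpoint in either gap. The median distance between neighbouring peaks in the locus was 1068 bp, and 5 distances exceeded 5 kb.

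The locus was denser than its surroundings. The 100 kb beyond its 5 kb flanks held 37 peaks on the Stat5b side and 27 on the Stat3 side, or 0.320 per kb. The locus had 1.83 times that density (interval 1.32 to 2.56). These surroundings were uneven. On the Stat5b side, bins of 10 kb held from 0 peaks (-100 to -90 kb from the Stat5a start) to 8 (-160 to -150 kb). On the Stat5b side the nearest protein-coding gene was Ghdc, 9757 bp away, with 2 peaks in its body (0.404 per kb). On the Stat3 side it was Cavin1, which helps to form caveolae, 17141 bp away, with 6 (0.432 per kb).

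Gene by gene, the surroundings of Stat5b, Stat5a and Stat3 include the other genes of the locus, and the ratios were 1.31 (0.898 to 1.88), 1.24 (0.682 to 2.11) and 1.31 (0.833 to 2.00), all with intervals that held 1. Stat2 had 1.21 times the density of its surroundings (0.557 to 2.35) and Stat6 1.05 times (0.466 to 2.08), both with intervals that held 1. Stat4 had 0.555 times the density of its surroundings (0.322 to 0.922), with 21 peaks in the 100 kb on its 5′ side and 42 in the 100 kb on its 3′ side. On the 5′ side of Stat6, the nearest protein-coding gene, Lrp1, a lipoprotein receptor, lay 21806 bp away with 0.699 per kb. For Stat4 alone of the 6 genes the interval did not hold 1. Whether these ratios differ between genes was not tested. Among the 8689 genes of the same span range, 45.4% had a body denser than these surroundings, whose median density was 0.130 per kb. The surroundings of the 6 Stat genes held from 0.315 per kb (Stat4) to 0.500 (Stat5a), all above that median.

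**Figure D4:**
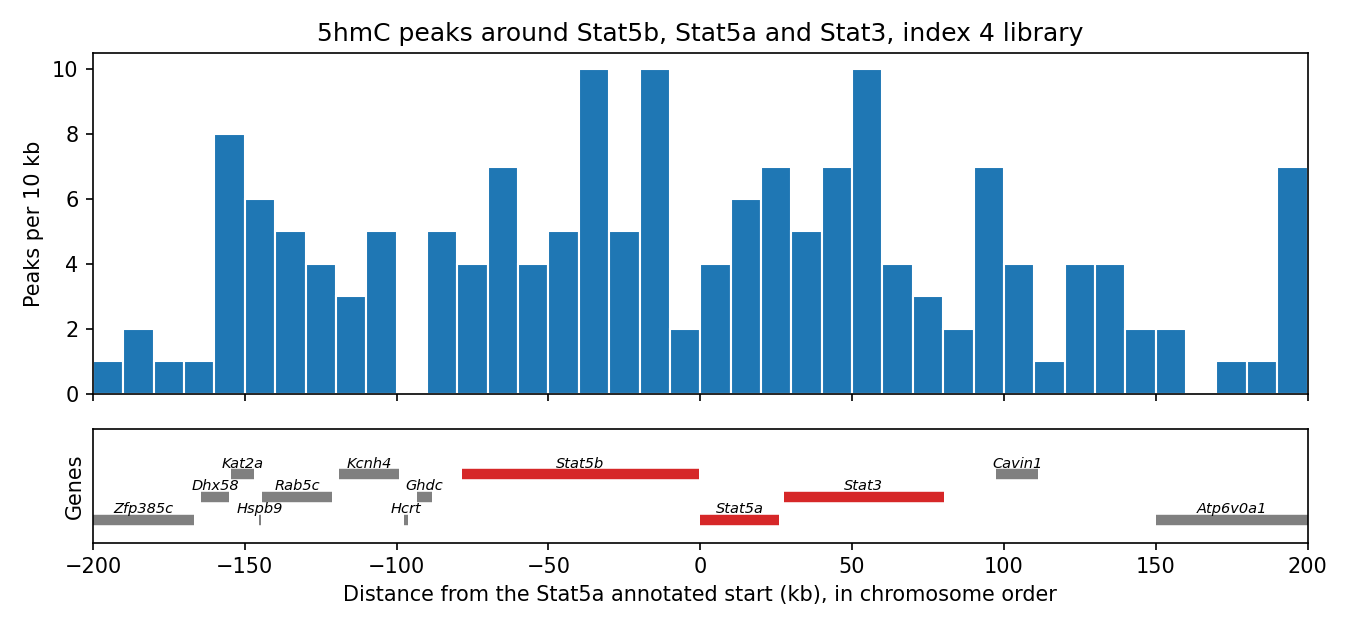
Peaks in bins of 10 kb around the Stat5b, Stat5a and Stat3 locus (upper panel) with protein-coding genes below; the horizontal axis is the distance from the annotated start of Stat5a in chromosome order. The Stat genes are red and other genes grey. Bins inside the Stat genes reach 10 peaks, and the bin just before Stat5a, which holds the CpG-rich start of Stat5b, has 2.

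Flanking peaks in part belonged to neighbours. Counted over body and 5 kb flanks together, the density was 0.578 per kb for Stat5b, 0.558 for Stat5a and 0.526 for Stat3. It was 0.535 for Stat6, 0.433 for Stat2 and 0.177 for Stat4. All 6 values lay within the intervals of the body densities, so the flanks were not poorer in peaks by this measure. Within 5 kb, Stat5b had 51 peaks, Stat3 33, Stat4 23, Stat5a 20, Stat6 15 and Stat2 14. Stat6 gained most from its flanks, with 5 peaks on its 3′ side that all lay in Nab2, a corepressor of Egr transcription factors whose span overlaps that of Stat6. Of these, 3 were listed more than once. In Stat2, 3 peaks lay in Apof, an apolipoprotein gene that overlaps its 5′ end, and 2 of them were listed more than once. Another lay in Il23a, a subunit of interleukin-23. The 2 peaks on the 3′ side of Stat4 lay in the non-coding gene Gm31812. At the edge of the 5 kb rule, the farthest peak counted was 4827 bp from Stat4, and the nearest peak counted for no Stat gene was 5323 bp from Stat5b.

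Of 47 genes listed as kinases, receptors, inhibitors, partner and targets, 45 had a peak within 5 kb, beside 73.1% of all protein-coding genes and 84.2% of those in the span range of the Stat genes. With so common a feature, the counts of the single classes below set none of them apart. Their median density in the body was 0.427 per kb. All 4 Janus kinase genes had peaks: Jak1 had 57 within 5 kb, Tyk2 20, Jak3 16 and Jak2 10. Of 17 receptor genes 16 had one, from 38 at Kit, the receptor of stem cell factor, and 34 at Flt3 to none at Il2rg, the shared chain of interleukin-2 type receptors. All 16 inhibitor genes had peaks, from 57 at the phosphatase gene Ptpn1 to 3 at Socs4, and their median density of 0.225 per kb was the lowest of these classes. Irf9, the partner of Stat2, had 10, at 0.827 per kb of body. Of 9 target genes 8 had one, from 49 at the survival gene Bcl2l1 to none at the kinase gene Pim2. The Stat genes, at a median of 0.534 per kb, lay above the medians of the kinases (0.449), receptors (0.487) and targets (0.333), and below the density of Irf9. Il2rg and Pim2, the 2 genes of the 47 without a peak, are also the only ones of the 47 on chromosome X. The share of all genes on that chromosome without a peak was not computed, and a link to the chromosome was not tested. Only 1 list was available, so the order of these densities has no replicate check.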

How the data were processed

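5hmC was captured by chemical labelling from marrow DNA and sequenced. Per the file headers, the authors called peaks with PICS (read length 99 bp, fragments 200 bp, windows 250 bp wide in steps of 20 bp, minimum 3 reads a window and 10 a region). The deposited lists hold chromosome, start and end, with no score, so no depth, signal or spread between samples could be had. The submitters' processing notes name the build mm10. No aligner or score cutoff is named in the sources used here.

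The lists were identical and counted as 1. Repeated lines were counted once (223267 lines, 208468 distinct peaks). Starts were made 1-based. Gene spans came from a RefSeq table of GRCm38.p6, without models starting below 3 Mb on chromosomes other than Y, and strand and starts from the RefSeq promoter table, in which all 6 genes were found. Counts were tested on simulated peaks. Python 3.11.15, numpy 2.4.6, pandas 2.3.3 and scipy 1.17.1 were used. There was no test between groups. All 6 genes, the pathway genes with most and fewest peaks in their class and the nearest coding genes were named, and the coding neighbours of Stat4 are not reported here. Members and lists were chosen with earlier results of these data known. The classes of CpG count were set at the median after the windows were seen.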

Additional observations from a re-analysis of the deposited data

How the results depend on the processing

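Of 79 values recomputed under alternatives, not counting those that leave out a replicate, 65 moved little: counts stayed within 1.5 times, and densities and shares of parts stayed within their intervals. Some of the 65 could not move: no repeated peak lay in a body, so body densities with repeated lines kept were identical. Counting overlaps of at least 1 bp in place of midpoints changed none of its 8 values. The tally therefore overstates stability. In the gene body alone Stat6 had 9 peaks in place of 15, and also 9 from the start of the promoter table, an alternative chosen after seeing the data. With peaks of at least 50 bp only, the counts within 5 kb were 8 for Stat2, 14 for Stat3, 9 for Stat5a, 33 for Stat5b, 9 for Stat6 and 87 for all 6 genes, against 19 for Stat4. The densities in the body, an alternative chosen after seeing the data, were 0.227 per kb for Stat3, 0.310 for Stat5a, 0.383 for Stat5b and 0.222 for Stat6, below their intervals, and 0.313 for Stat2 and 0.142 for Stat4. Many widths are rounded to 49 bp, just under that limit. In 5 equal parts of the body, 100% of parts held a peak in Stat3 and in Stat6, against 90% and 70% of 10 parts. Without replicate 1 or without replicate 2 every value was the same, since both hold 1 and the same list, which says nothing about stability. No score was listed, so no stricter score could be applied. No paired analysis was possible because the lists are identical and normal marrow has none here. Without read depth, weak 5hmC and its absence cannot be told apart.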
